A study of Danio rerio with 16 samples.

Results

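The zebrafish genome carries a pair of genes for the matrix protein fibronectin, fn1a (ENSDARG00000019815) and fn1b (ENSDARG00000006526), and their transcripts were compared across cells sorted from the adult ventricle. The members were taken by their 2 Ensembl gene IDs from a table of 31388 IDs, and both passed the filter on low values, as did 19039 IDs in all. RNA was sequenced in 16 libraries of cells from the apex of the ventricle of adult fish aged 3 to 9 months. All fish carried both reporters, postnb:citrine and kdrl:mCherry, and 3 to 5 hearts were pooled for each sample.

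The 4 groups were mCherry-positive cells of uninjured hearts (3 libraries, pools 2, 3 and 4), mCherry-positive cells 7 days after cryoinjury (7 dpi; 4 libraries, pools 5, 6, 7 and 9), citrine-positive cells at 7 dpi (3 libraries, pools 7, 9 and 10) and cells with neither reporter at 7 dpi (6 libraries, pools 5 to 10). Cryoinjury is local damage to the ventricle by cold. The kdrl promoter marks endothelial and endocardial cells, and the postnb promoter belongs to a periostin gene, which activated fibroblasts use. A sorted fraction thus holds the cells in which a promoter was active, and the double-negative fraction is a mixture of all other cells, in which fibroblast transcripts were measured too. No citrine-positive or double-negative library of uninjured hearts was analysed, and no pool number occurs in both uninjured and injured hearts, so injury and pool cannot be told apart.

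Fibronectin is a secreted glycoprotein that cells assemble into fibrils by binding it through integrins on their surface. It is part of the provisional matrix laid down in wounds together with fibrin, and transglutaminases, collagens, tenascins and periostin are bound or crosslinked to it. In zebrafish, fn1a is the gene of the natter mutant, in which the heart primordia fail to fuse at the midline, and fibronectin made by epicardial cells is known for a part in heart regeneration.

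Values are TPM, which give a gene's transcripts per 1000000 in the library after correction for transcript length, so that levels of both paralogs may be set side by side. The table keeps no read counts, so the depth is unknown, and between 12111 and 16854 IDs reached 1 TPM in a library. In the 5 libraries of pools 9 and 10, 2 IDs alone took 25.7% to 35.8% of all TPM, against 2.09% at most in the other 11. They were picked for the largest excess of mean TPM in these pools, so that contrast follows from the choice. Below they are called the 2 most abundant IDs of pools 9 and 10. The 20 most abundant IDs took 60.6% to 66.5% of TPM in these 5 libraries and 29.4% to 66.9% in the other 11. The endothelial gene kdrl itself was at 387 ± 94.4 TPM (SD, n = 3) in mCherry-positive cells of uninjured hearts and 214 ± 51.0 (n = 4) at 7 dpi, against 1.1 ± 0.55 (n = 3) in citrine-positive and 36.9 ± 13.5 (n = 6) in double-negative cells. The summed level of 9 fibroblast marker IDs was 3100 to 10262 TPM in the citrine-positive libraries. It was 1140 to 3190 TPM in the double-negative ones and 594 to 2235 TPM in the mCherry-positive ones at 7 dpi. Of the last, the pool 9 library was the one at 2235 TPM. The 9 IDs include 2 of periostin, so part of this sum is tied to the reporter by which citrine-positive cells were sorted. Of 11 cardiomyocyte marker IDs, mb, the gene of myoglobin, made up 93.1% to 98.7% of the sum in every mCherry-positive library. The other 10 summed to 154 to 277 TPM in mCherry-positive libraries of uninjured hearts and 167 to 286 TPM at 7 dpi. They summed to 7222, 466.06 and 577 TPM with citrine in pools 7, 9 and 10 and to 837 to 2265 TPM in cells without reporter.

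fn1b was the more abundant paralog in 15 of 16 libraries. In citrine-positive cells fn1b stood at 3497, 3239 and 4630 TPM in pools 7, 9 and 10, between rank 15 and rank 19 of all 31388 IDs. fn1a stood at 774, 705 and 946 TPM in the same libraries, between rank 61 and rank 86. Together the paralogs took 0.394% to 0.558% of all transcripts of these cells. In double-negative cells fn1b ranged from 1087 to 3433 TPM with a median of 1492, and fn1a from 177 to 416 TPM with a median of 234. The summed level of both was therefore 1289 to 3849 TPM in double-negative cells and 3944 to 5576 TPM in citrine-positive cells.

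In mCherry-positive cells both paralogs were far lower. fn1a was at 2.06, 2.82 and 0.31 TPM in pools 2, 3 and 4 of uninjured hearts. At 7 dpi it was at 16.41, 29.16, 37.13 and 99.6 TPM in pools 5, 6, 7 and 9. All 4 injured libraries lay above all 3 uninjured ones. fn1b was at 49.29, 41.03 and 54.39 TPM in the uninjured libraries. At 7 dpi it was at 91.92, 153.42, 73.14 and 11.18 TPM in pools 5, 6, 7 and 9. Here the groups overlapped: pools 5, 6 and 7 lay above every uninjured library and pool 9 below every one.

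**Figure D1:**
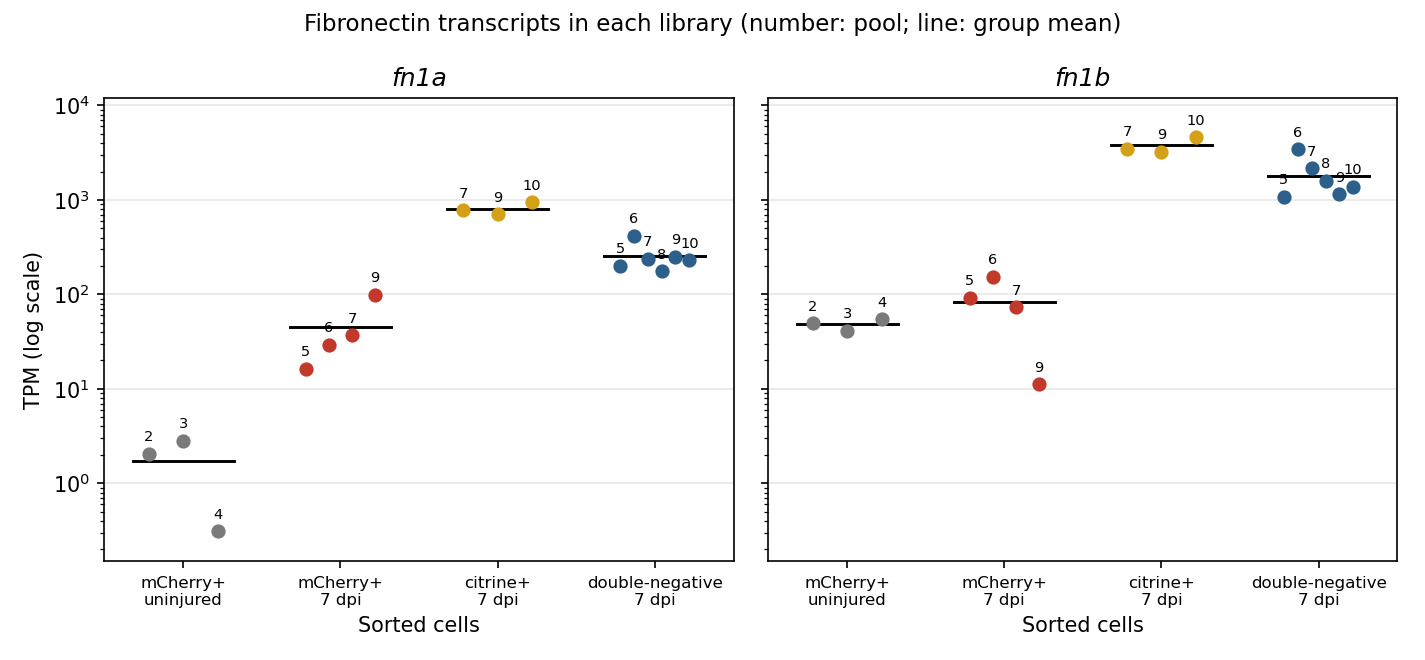
TPM of fn1a (left) and fn1b (right) on a log axis for each of the 16 libraries, as points numbered by pool, with a line at each group's mean. fn1a separates all 4 groups, from 0.31 to 2.82 TPM in uninjured mCherry-positive cells up to 705 to 946 TPM in citrine-positive cells, whereas fn1b overlaps between the 2 mCherry-positive groups and between citrine-positive and double-negative cells.

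By group, fn1a ran upward in the order uninjured mCherry-positive (1.73 ± 1.29 TPM, SD, n = 3), injured mCherry-positive (45.6 ± 37.0, n = 4), double-negative (252 ± 84.5, n = 6) and citrine-positive (808 ± 124, n = 3). No pair of neighbours in this order overlapped. For fn1b the order of the means was the same, at 48.2 ± 6.74 TPM (n = 3), 82.4 ± 58.6 (n = 4), 1803 ± 888 (n = 6) and 3789 ± 740 (n = 3). The 2 mCherry-positive groups overlapped, and so did double-negative and citrine-positive cells. The coefficient of variation of fn1b was 14.0% among uninjured mCherry-positive libraries and 71.1% among injured ones. Leaving out the pool 9 library, the injured mCherry-positive cells had 27.6 ± 10.5 TPM of fn1a and 106 ± 42.0 TPM of fn1b (n = 3).

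The first comparison asked what changes in mCherry-positive cells after injury. fn1a was 26.3-fold higher by group means in injured than in uninjured hearts, and its change on the log2(TPM + 1) scale was 3.92 ± 0.49 (SE), adjusted p = 0.000529 by limma. It had the sixth smallest p (rank 6) of 19039 IDs in this comparison. Of all IDs tested, 0.42% were called higher and 0.273% lower at an adjusted p under 0.05, that is 80 and 52 IDs, or 134 and 54 after median-of-ratios scaling and 82 and 33 without the 2 most abundant IDs of pools 9 and 10. Groups that did not overlap in the upward direction, as those of fn1a, were seen for 2.89% of IDs. The fn1a call held without each of the 7 libraries in turn, with changes from 3.45 to 4.29. It was lost, at an adjusted p of 0.0538 and the same change, when the spread was estimated from the 2 mCherry-positive groups alone, where only 4 IDs were called in all.

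fn1b was 1.71-fold higher by group means after injury, and its change of 0.29 ± 0.62 (SE) did not pass the test (adjusted p = 0.910 by limma). Pool 9 decided this value: without it the change was 1.06 with an adjusted p of 0.292. Without pool 6 it was -0.16, with an adjusted p of 0.969. A change of fn1b after injury was thus not detectable in these libraries, whose spread at 7 dpi exceeded the difference of the means. As all libraries are bulk samples, more cells with a transcript and more of it per cell cannot be told apart.

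Markers of other cells differed between the mCherry-positive groups too. The summed level of 18 macrophage and leukocyte marker IDs was 83.6 to 388 TPM in uninjured and 217 to 1003 TPM in injured hearts, and 7 of 17 tested were higher at an unadjusted p under 0.05, with a median change of 1.11. Of these 1 passed the adjusted test by limma, MFAP4 (ENSDARG00000038681, at 0.0533 ± 0.0924 TPM before and 19.2 ± 10.2 TPM after injury). Of all IDs tested, 0.42% were called higher in this comparison, and single calls are not read as a result about a marker list. The share of all IDs at an unadjusted p under 0.05 is not given, here or for the gene lists. Counts at that threshold therefore have no background beside them. Thrombocyte markers (6 IDs) summed to 5.61 to 10.2 TPM and then to 20.5 to 119 TPM, with 1 of 6 called higher. That ID was F13A1 (ENSDARG00000045453), which made up 60.2% to 95.2% of the sum at 7 dpi. The other 5 IDs summed to 1.19 to 9.77 TPM before and 3.37 to 12.53 TPM after injury. Fibroblast markers (9 IDs) summed to 471 to 653 TPM in uninjured hearts. At 7 dpi they summed to 694, 980, 594 and 2235 TPM in pools 5, 6, 7 and 9, and none was called by limma (3 of 9 at an unadjusted p under 0.05). Of the pool 9 sum, col1a1a was 757 TPM and POSTN (ENSDARG00000043806) 407 TPM. In uninjured hearts these IDs stood at 207 to 254 TPM and 109 to 173 TPM. Mural and smooth muscle markers (10 IDs) summed to 317 to 691 TPM before and 274 to 489 TPM after injury, with none called. At an unadjusted p under 0.05, 2 of 8 tested were higher. Without TAGLN (ENSDARG00000033466) they summed to 28.9 to 48.6 TPM before injury. At 7 dpi that sum was 67.6, 85.5, 45.2 and 174.55 TPM in pools 5, 6, 7 and 9. Epicardial markers (8 IDs) summed to 158 to 265 TPM before and 138 to 373 TPM after injury, again with none called (0 of 8 at an unadjusted p under 0.05). ALDH1A2, a retinoic acid synthase, made up 74.2% to 95.0% of that sum in the 7 libraries. Of the 8 epicardial IDs, TCF21, TBX18 and WT1 (the ID matched for wt1a) were listed at 0 in every uninjured library. The other 5, among them a separate ID for wt1b, averaged 1 TPM or more there. In pool 9 TCF21 and TBX18 were at 0 and WT1 at 0.05 TPM, and WT1 was at 0 in pools 5, 6 and 7. TCF21 reached 0.53 TPM at most in mCherry-positive cells, against 58.2 ± 23.6 TPM (n = 3) in citrine-positive cells. The part of these other cells in the fn1a result, and in those of the gene lists after injury, was not tested.

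**Figure D2:**
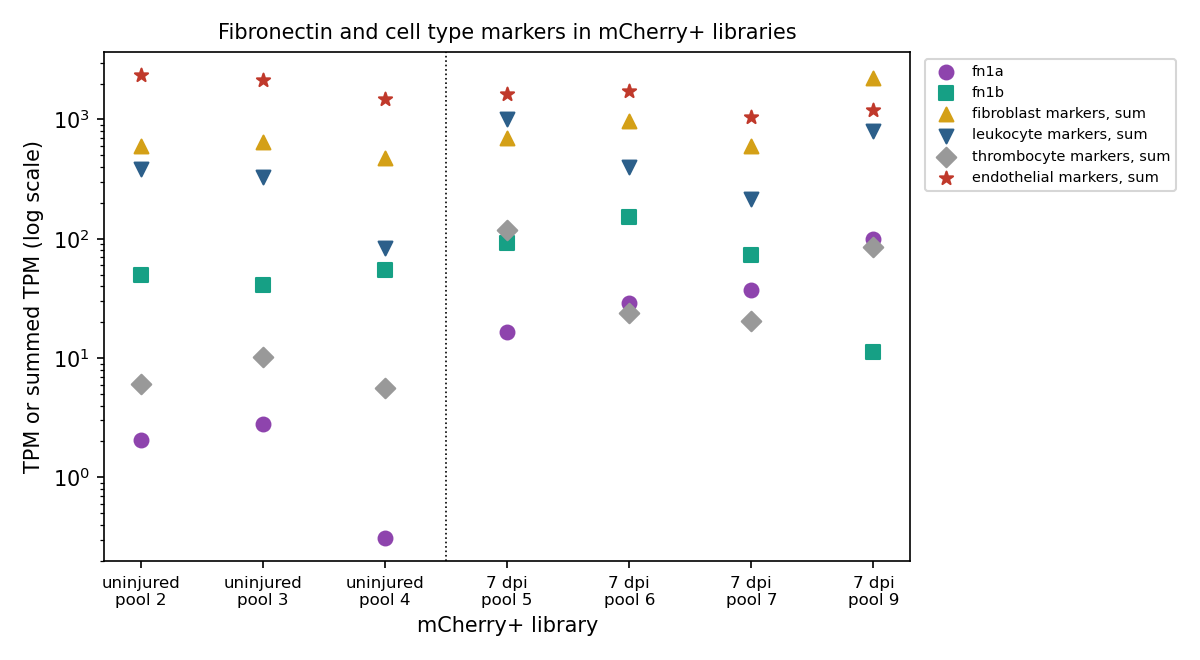
TPM of fn1a and fn1b and the summed TPM of fibroblast, leukocyte, thrombocyte and endothelial markers, on a log axis, in the 7 mCherry-positive libraries (dotted line: between uninjured and 7 dpi). In pool 9 the fibroblast sum is highest, at 2235 TPM, fn1a is at 99.6 TPM and fn1b at 11.18 TPM, the lowest of the 7.

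The share of fn1a among fibronectin transcripts was computed for each library. In citrine-positive cells fn1a made up 16.97% to 18.1% of the sum, with 4.52, 4.59 and 4.89 fn1b transcripts to each fn1a transcript. In double-negative cells the share was 9.92% to 18.0%, with 4.56 to 9.08 fn1b transcripts to each of fn1a. In uninjured mCherry-positive cells it was 4.01%, 6.43% and 0.567%. In injured ones it was 15.1%, 15.97%, 33.7% and 89.9% in pools 5, 6, 7 and 9. Pools 5 and 6 therefore lay within the range of double-negative cells and just below that of citrine-positive cells, and pools 7 and 9 lay above both ranges.

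Expressed as log2((fn1a + 1)/(fn1b + 1)), which does not depend on how a library is scaled apart from the added 1, the ratio was -4.30 ± 0.997 (SD, n = 3) in uninjured and -0.67 ± 2.57 (n = 4) in injured mCherry-positive cells. It was -2.22 ± 0.06 (n = 3) in citrine-positive and -2.77 ± 0.42 (n = 6) in double-negative cells. The added 1 weighs most in uninjured mCherry-positive cells, where fn1a was at 0.31 to 2.82 TPM. Pool 4 stood at -5.40 there, with 175 fn1b transcripts to each of fn1a. The size of the difference from that group rests in part on the added value. Every injured mCherry-positive library had a higher ratio than every uninjured one. The difference of 3.63 had p = 0.0571 in a two-sided exact permutation test, the smallest that 4 against 3 libraries allow, and 0.0952 after adjustment over the 4 comparisons. Without pool 9 the difference was 2.39. Against double-negative cells, injured mCherry-positive cells had a ratio higher by 2.09 (exact permutation p = 0.0381, adjusted 0.0952), or by 0.85 without pool 9. Citrine-positive cells exceeded double-negative cells by 0.54 (exact permutation p = 0.0714, adjusted 0.0952), with pool numbers ignored. Within the 3 pools they share, the mean difference was 0.43 (exact permutation p = 0.5, also after adjustment). Between citrine-positive and injured mCherry-positive cells the difference was -1.55 (exact permutation p = 0.571, also after adjustment) and -0.31 without pool 9. None of these differences passed 0.05 after adjustment. Reads shared by the paralogs are divided between them by estimate, which could move the ratio.

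Within groups, fn1b exceeded fn1a in 3 of 3 uninjured mCherry-positive, 3 of 4 injured mCherry-positive, 3 of 3 citrine-positive and 6 of 6 double-negative libraries. An exact sign-flip permutation test, two-sided, gave p = 0.03125 for the double-negative cells, the smallest that 6 libraries allow, and 0.125 after adjustment over the 4 groups. The other groups gave exact permutation p = 0.25 (uninjured mCherry-positive), 0.625 (injured mCherry-positive) and 0.25 (citrine-positive), where 3 libraries allow 0.25 and 4 allow 0.125 at least. Those group sizes could not reach 0.05. After adjustment the double-negative cells could not reach it either, as their 0.125 came from the smallest p that 6 libraries allow.

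**Figure D3:**
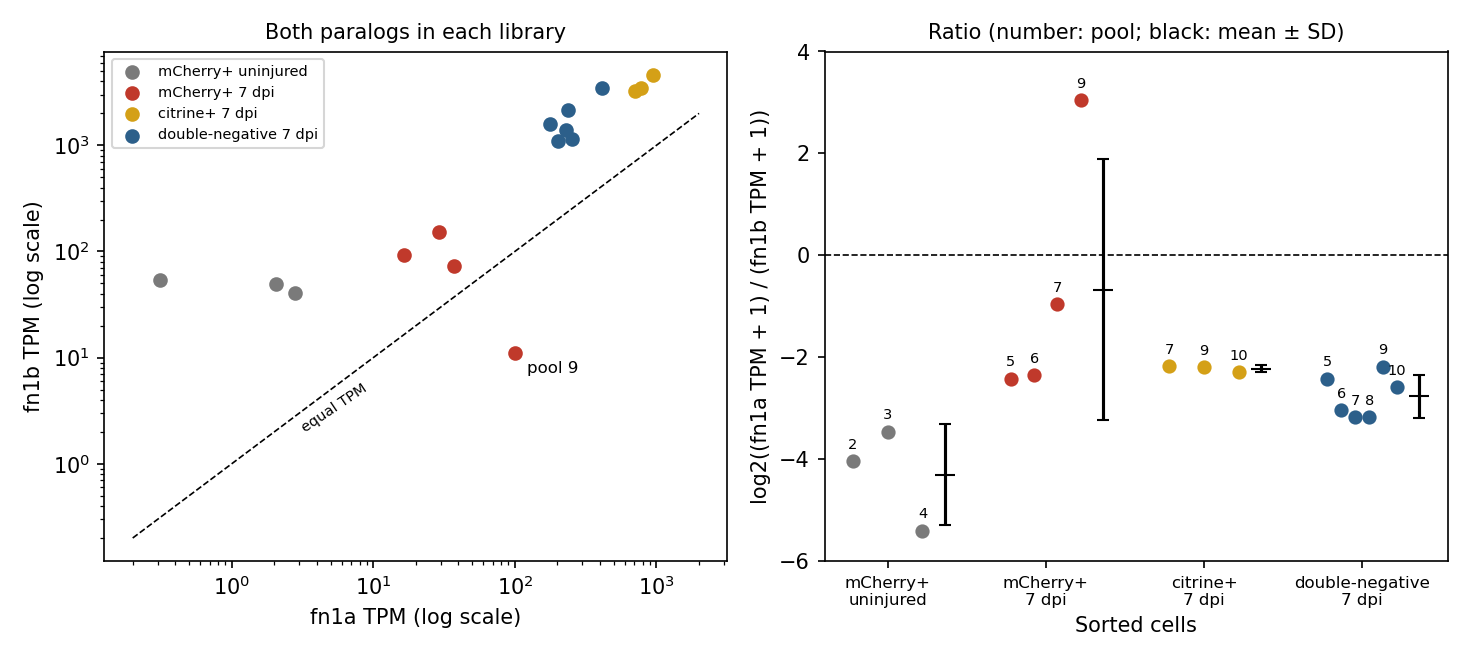
Left, fn1b against fn1a TPM on log axes, 1 point for each library, with a dashed line where both are equal. Right, log2((fn1a + 1)/(fn1b + 1)) for each library, numbered by pool, with the mean ± SD of each group in black. The 3 citrine-positive libraries lie within an SD of 0.06, and pool 9 of the injured mCherry-positive cells is the single library above 0.

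A second comparison set citrine-positive against double-negative cells of injured hearts. fn1a was 3.2-fold higher by group means in citrine-positive cells, a change of 1.72 ± 0.45 (SE) with adjusted p = 0.0183 by limma, and the groups did not overlap. In the same comparison 1.78% of IDs were called higher (338) and 8.08% lower (1538), and 3.83% had groups that did not overlap in the upward direction. With median-of-ratios scaling these counts were 892 and 1561. fn1b was 2.10-fold higher by group means, with a change of 1.18 ± 0.57 (SE) that did not pass the test (adjusted p = 0.242 by limma). The SE draws on the spread within all 4 groups. For fn1b the coefficient of variation was 71.1% in mCherry-positive cells at 7 dpi, a group outside this comparison. It was 19.5% in citrine-positive and 49.3% in double-negative cells. A call of fn1a without one of fn1b is therefore not read as a difference between the paralogs. The groups of fn1b overlapped through double-negative pool 6, at 3433 TPM, which lay above citrine-positive pool 9, at 3239 TPM. Median-of-ratios scaling divides TPM by a size factor, 1.44 for the first and 0.849 for the second of these libraries. Their order thus holds for unscaled TPM only.

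Within the same pool number the direction was the same for both genes. fn1a was 3.24-, 2.80- and 4.14-fold higher in citrine-positive than in double-negative cells of pools 7, 9 and 10, and fn1b 1.61-, 2.82- and 3.35-fold higher. With pool as a block in the limma fit, the fn1b change was 1.31 with an adjusted p of 0.0502, and that of fn1a 1.74 with an adjusted p of 0.00666. The fn1a call rested on few citrine-positive libraries: without pool 7, 9 or 10 of these cells the adjusted p was 0.0554, 0.0513 or 0.0889, at changes of 1.75, 1.81 and 1.60. Without pools 9 and 10, which leaves 1 citrine-positive library assumed to vary like the other groups, the change was 1.66 with an adjusted p of 0.200. With a pseudocount of 0.1 it was 1.73, with an adjusted p of 0.0600.

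In the comparison of citrine-positive with mCherry-positive cells at 7 dpi, both paralogs were higher in citrine-positive cells. fn1a was 17.7-fold higher by group means (change 4.41 ± 0.49, SE, adjusted p = 3.79e-06 by limma). fn1b was 46.0-fold higher (change 5.96 ± 0.62, SE, adjusted p = 1.75e-06). Of all IDs, 4.84% were called higher (922) and 7.07% lower (1346), and 6.36% had groups that did not overlap in the upward direction. With median-of-ratios scaling the counts were 1547 and 957, and without the 2 most abundant IDs of pools 9 and 10 they were 985 and 981. Within pool 7, fn1a was 20.8-fold and fn1b 47.8-fold higher in citrine-positive cells, and within pool 9 they were 7.08-fold and 290-fold higher.

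Compared with double-negative cells, mCherry-positive cells at 7 dpi had less of both. The double-negative mean was 5.53-fold that of mCherry-positive cells for fn1a (change -2.69 ± 0.41, SE, adjusted p = 0.000335 by limma) and 21.9-fold for fn1b (change -4.79 ± 0.52, SE, adjusted p = 1.27e-05). Here 4.06% of IDs were called higher in mCherry-positive cells (773) and 6.88% lower (1310), and 6.45% had groups that did not overlap in the downward direction. Within pools 5, 6, 7 and 9, double-negative cells held 12.3-, 14.3-, 6.42- and 2.53-fold as much fn1a, and 11.8-, 22.4-, 29.6- and 103-fold as much fn1b. Both calls held for each paralog without each of the 10 libraries in turn. The comparisons among injured hearts share libraries with each other, so they are not independent of one another.

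**Figure D4:**
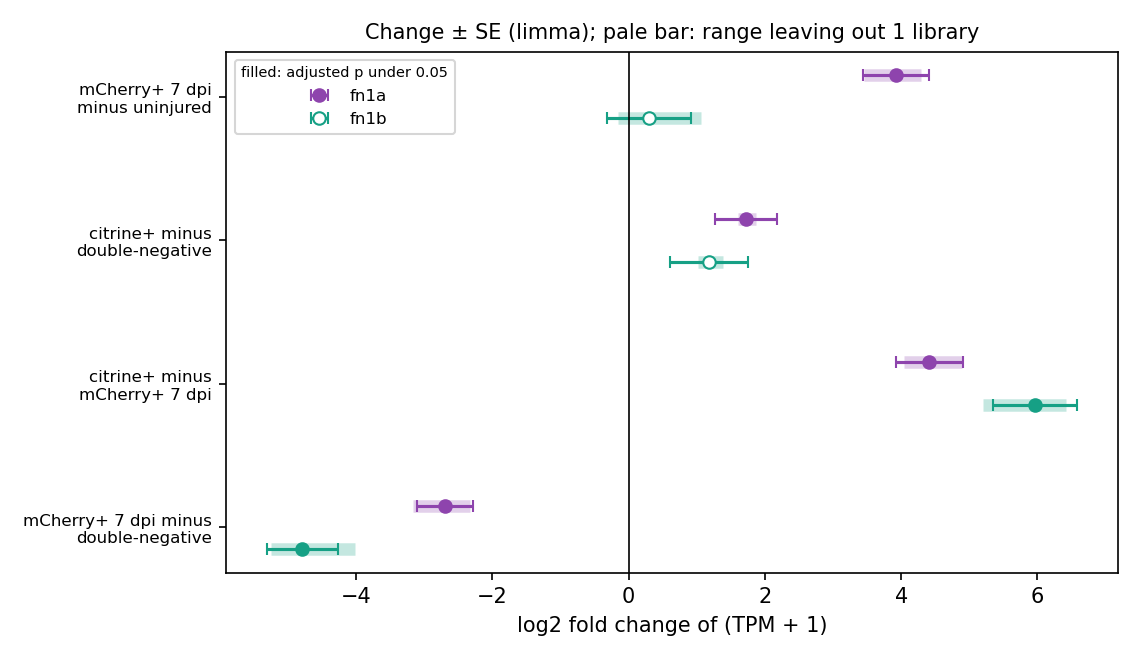
Change of fn1a and fn1b on the log2(TPM + 1) scale with its SE in the 4 comparisons (limma). Filled points have an adjusted p under 0.05, and pale bars give the range when each library is left out in turn. fn1a is called in all 4 comparisons and fn1b in the 2 that set mCherry-positive cells at 7 dpi against other injured cells. Each SE draws on the spread within all 4 groups, so a call of 1 paralog alone is not a test between them.

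The receptors of fibronectin were measured as a list of 15 tested IDs. The α chain of the main fibronectin receptor, ITGA5, was at 113 ± 31.2 TPM (SD, n = 3) in uninjured mCherry-positive cells, 111 ± 38.5 (n = 4) in injured ones, 89.8 ± 58.2 (n = 3) in citrine-positive and 77.5 ± 35.3 (n = 6) in double-negative cells. It was called in no comparison. ITGA4, whose integrin binds an alternatively spliced segment of fibronectin and is known from leukocytes, was at 1.21, 4.88 and 1.22 TPM in uninjured mCherry-positive cells. At 7 dpi it was at 12.07, 8.7, 6.41 and 16.85 TPM in pools 5, 6, 7 and 9, above every uninjured library. Its change of 1.89 ± 0.42 (SE) had an adjusted p of 0.0425 by limma. It was the only receptor call in that comparison, beside 0.42% of all IDs called higher and 0.273% lower. A single call of 15 is not read as a result about the list. The ITGA4 call held in 2 of 7 fits that left out a library, with adjusted p up to 0.167. The median change over the list was 0.49, and -0.06 over all IDs tested. At an unadjusted p under 0.05, 3 IDs of the list were higher and 2 lower. Of the list, sdc4 was at 430 to 483 TPM before and 176 to 251 TPM after injury. sdc2 was at 93.4 to 149 TPM and then at 25.4 to 68.7 TPM. Neither was called, and groups that did not overlap in the downward direction were seen for 4.03% of all IDs.

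Among cells of injured hearts, 1 receptor ID was called higher and 3 lower in citrine-positive than in double-negative cells, of 15 tested, beside 1.78% and 8.08% of all IDs. The fibrinogen receptor chain itga2b, a thrombocyte gene, was listed at 0 in all 3 citrine-positive libraries and at 18.9 ± 8.81 TPM (n = 6) in double-negative cells. itgb7, a leukocyte integrin chain, was at 0.193 ± 0.206 TPM (n = 3) and 54.1 ± 29.4 TPM (n = 6). All 17 macrophage and leukocyte markers tested were called lower in citrine-positive cells. Their list summed to 19.8 to 30.4 TPM there and to 1266 to 2239 TPM in double-negative cells, and the part of such cells in these receptor values was not tested. Against mCherry-positive cells at 7 dpi, 3 receptor IDs were higher and 1 lower in citrine-positive cells, and 4 were lower in mCherry-positive than in double-negative cells, beside 4.84% and 7.07% and, for the last, 6.88% of all IDs. Of the 3 higher ones, none was called when mCherry-positive pool 7 or citrine-positive pool 9 or 10 was left out, and 1 without mCherry-positive pool 5. The higher call against double-negative cells was absent without citrine-positive pool 9 or 10 or double-negative pool 5, 7 or 8, and there were 2 without citrine-positive pool 7 or double-negative pool 6.

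Matrix partners and crosslinkers of fibronectin were the list with the most calls after injury in mCherry-positive cells, 5 of 23 tested, all higher, with a median change of 1.33 beside -0.06 over all IDs, of which 0.42% were called higher. In this comparison 7 of 17 leukocyte and 3 of 9 fibroblast markers were higher at an unadjusted p under 0.05. Among mCherry-positive libraries LOXL2, COL5A1, TGM2 and THBS1 were all highest in pool 9. There the fibroblast markers summed to 2235 TPM, of which col1a1a made up 33.9%. The mural markers without TAGLN were highest in pool 9 too, at 174.55 TPM. F13A1 (ENSDARG00000045453), the transglutaminase subunit of clotting factor XIII, which also stood among the thrombocyte markers, was at 4.86, 0.39 and 0.38 TPM before injury. At 7 dpi it was at 112.94, 20.41, 12.35 and 73.33 TPM in pools 5, 6, 7 and 9, a change of 4.14 ± 0.65 (SE, adjusted p = 0.00555 by limma). LOXL2 (ENSDARG00000044074), a lysyl oxidase, was at 0.09, 0.37 and 1.91 TPM before injury. It was at 9.36, 36.58, 9.21 and 50.62 TPM at 7 dpi, a change of 3.71 ± 0.59 (SE, adjusted p = 0.00555 by limma). Both calls held without each of the 7 libraries in turn. That of LOXL2 was lost with a pseudocount of 5 (change 2.19, adjusted p = 0.0624).

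The other 3 calls each depended on single libraries. COL5A1 (ENSDARG00000012593), a chain of fibrillar collagen V, rose from 45.8 ± 9.81 TPM (n = 3) to 197 ± 62.8 (n = 4), with an adjusted p of 0.0168 by limma, and was called in 5 of 7 fits that left out a library. TGM2 (ENSDARG00000074094), tissue transglutaminase, rose from 1.44 ± 1.22 to 25.7 ± 23.7 TPM (adjusted p = 0.0270 by limma), called in 4 of 7. THBS1 (ENSDARG00000010785), thrombospondin, rose from 9.64 ± 3.78 to 65.2 ± 51.6 TPM (adjusted p = 0.0399 by limma), called in 1 of 7. Other IDs of the crosslinker genes were tested and not called after injury. They were TGM2 (ENSDARG00000070157), tgm2l, F13A1 (ENSDARG00000094832), f13a1b and loxl2a. The list held 2 calls without uninjured pool 2 or injured pool 6, 3 without uninjured pool 4, none in a fit of the 2 groups alone, and 1 of 11 where only exact symbol matches were kept.

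In citrine-positive cells 10 of 23 matrix partners were higher than in double-negative cells and 2 lower, beside 1.78% and 8.08% of all IDs. The 2 lower calls lie near that share and are not read as a result about the list. TNC, tenascin C, was at 47.9 ± 14.2 TPM (n = 3) against 3.55 ± 0.598 (n = 6), a change of 3.40 ± 0.41 (SE, adjusted p = 1.42e-05 by limma). F13A1 went the other way, at 12.8 ± 6.69 against 351 ± 130 TPM. Without citrine-positive pool 9 only 1 partner was called higher, without pool 10 only 2, and without double-negative pool 5, 7 or 8 there were 4, 5 or 4. Against mCherry-positive cells at 7 dpi 10 of 23 were called, all higher, beside 4.84% of all IDs, and 16 with median-of-ratios scaling. Among the partners called, POSTN (ENSDARG00000104267), periostin, was at 1059 ± 423 TPM (n = 3) against 16.8 ± 15.1 (n = 4). A second POSTN ID of the list (ENSDARG00000043806) was at 206 ± 172 TPM in citrine-positive and 157 ± 168 TPM in mCherry-positive cells at 7 dpi. Citrine-positive cells were sorted by the promoter of a periostin gene, so a high periostin level in them is tied to the sort. The POSTN call stands among the 10 but is not read as a result. Both POSTN IDs, col1a1a, COL1A1 and COL1A2 also stand among the fibroblast markers. Of those 9 markers, 5 were called higher in citrine-positive than in double-negative cells, and 7 against mCherry-positive cells at 7 dpi. The counts of the 2 lists are thus not independent, and the part of fibroblast content in the partner calls was not tested. Between mCherry-positive and double-negative cells 7 of 23 were lower, beside 6.88% of all IDs, and 12 without mCherry-positive pool 9 or with median-of-ratios scaling.

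Proteases that cut fibronectin or free plasmin (17 tested) gave 1 call after injury, higher, beside 0.42% of all IDs. PLAT, tissue plasminogen activator, was at 0.16, 0.11 and 0 TPM before and at 1.78, 8.69, 10.29 and 4.1 TPM after injury, a change of 2.53 ± 0.52 (SE, adjusted p = 0.0254 by limma), which held in 2 of 7 fits that left out a library. MMP2, a gelatinase, was at 374 ± 63.1 TPM (n = 3) in citrine-positive cells, 102 ± 30.5 (n = 6) in double-negative and 21.1 ± 9.31 (n = 4) in mCherry-positive cells at 7 dpi. It was called in all 3 comparisons of injured cells, with each library left out in turn as well. mmp13b, a collagenase, was at 31.8 ± 18.6, 3.61 ± 1.59 and 0.518 ± 0.417 TPM in the same order and was also called in all 3. Its calls in citrine-positive cells held without each library, and that between the other 2 fractions in 4 of 10 fits. MMP14 (ENSDARG00000002235) was at 103 ± 36.2, 28.1 ± 9.31 and 4.19 ± 4.6 TPM. Its call between citrine-positive and double-negative cells (adjusted p = 0.0447 by limma) held in 0 of 9 fits that left out a library. In all, 4 proteases were higher and 1 lower in citrine-positive than in double-negative cells, 8 and 3 against mCherry-positive cells, and 1 higher and 8 lower in mCherry-positive than in double-negative cells. Of all IDs 1.78% and 8.08%, 4.84% and 7.07%, and 4.06% and 6.88% were called higher and lower there. The single calls of 17 lie near these shares and are not read as a result about the list. The 4 higher calls were 2 or 3 in all 9 fits that left out a library, and 2 without citrine-positive pool 9 or 10 or double-negative pool 7 or 8. The 8 lower calls were 5 without mCherry-positive pool 5, and the 3 lower calls against mCherry-positive cells were 1 without mCherry-positive pool 5 or 6 or citrine-positive pool 9 or 10.

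A list of provisional matrix genes held fibrinogen, osteopontin, hyaluronan and versican genes and emilins, and 12 of its 18 IDs were tested. None was called after injury by limma, and 3 had an unadjusted p under 0.05, all higher. hapln1a, which links hyaluronan to proteoglycans, was at 200 ± 146 TPM (n = 3) in citrine-positive, 76.2 ± 37.2 (n = 6) in double-negative and 0.198 ± 0.242 (n = 4) in mCherry-positive cells at 7 dpi. emilin1a, an elastic fibre glycoprotein, was at 12.8 ± 8.65, 3.98 ± 1.34 and 0.358 ± 0.566 TPM in that order, and both differences from mCherry-positive cells were called. cd44b, whose product is a hyaluronan receptor, was at 0.133 ± 0.231, 6.67 ± 2.51 and 0.165 ± 0.33 TPM, and the double-negative cells differed from both others by limma (adjusted p = 0.000255 and 0.000203). Of this list 5 were higher in citrine-positive than in mCherry-positive cells, beside 4.84% of all IDs. In mCherry-positive against double-negative cells 6 were lower and 1 higher, beside 6.88% and 4.06% of all IDs. Leaving out a library at a time, the 6 ran from 4 to 6. Between citrine-positive and double-negative cells 1 was higher and 1 lower, beside 1.78% and 8.08% of all IDs. Such single calls of 12 are not read as a result about the list. The higher call was absent without citrine-positive pool 9 or double-negative pool 5, 7 or 8. Focal adhesion and adaptor genes (26 tested) gave no call after injury by limma (4 higher and 1 lower at an unadjusted p under 0.05). Beside 8.08% of all IDs, 5 of the 26 were called lower in citrine-positive than in double-negative cells. These include FERMT3 (ENSDARG00000030938), kindlin-3, the integrin activator of blood cells, at 0.283 ± 0.333 TPM (n = 3) against 70.3 ± 46.8 (n = 6). A second FERMT3 ID (ENSDARG00000079267) was at 0.567 ± 0.56 against 16.6 ± 5.27 TPM, and PTK2B, a kinase related to focal adhesion kinase, at 0.803 ± 0.854 against 9.85 ± 2.66 TPM. These 3 calls held without each of the 9 libraries. With median-of-ratios scaling 5 genes of this list were also called higher there. The list gave 2 higher and 3 lower calls for citrine-positive against mCherry-positive cells and 2 and 4 for mCherry-positive against double-negative cells. Of all IDs 4.84% and 7.07%, and 4.06% and 6.88%, were called higher and lower there, and so few calls of 26 are not read as a result about the list. Of the first pair, the 3 lower calls were 1 without mCherry-positive pool 6 or citrine-positive pool 7 or 9 and 5 without mCherry-positive pool 7. The 2 higher ones were 1 without mCherry-positive pool 5 or 6 or citrine-positive pool 7 or 9.

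Genes of TGF-beta signalling (18 tested), a pathway known to raise fibronectin synthesis in fibroblasts, gave no call by limma after injury (5 higher at an unadjusted p under 0.05) or between citrine-positive and double-negative cells (2 higher). They gave 1 call in each direction in both other comparisons, where 4.84% and 7.07%, and 4.06% and 6.88%, of all IDs were called higher and lower, so that the counts lie near the background and are not read as a result about the list. TGFBR2 (ENSDARG00000059363), a receptor, was at 154 ± 79.6 TPM (n = 4) in mCherry-positive and 42.9 ± 9.82 (n = 3) in citrine-positive cells (adjusted p = 0.0184 by limma). That call was lost without mCherry-positive pool 5 or 6 or citrine-positive pool 9, with adjusted p from 0.0616 to 0.0897. A second TGFBR2 ID of the list (ENSDARG00000034541) was tested and not called there. TGFB3, a ligand, was at 235 ± 71.4 TPM (n = 4) in mCherry-positive and 99.1 ± 50.2 (n = 6) in double-negative cells (adjusted p = 0.0236 by limma). That call was lost without mCherry-positive pool 6 or double-negative pool 5 or 10, at adjusted p of 0.0942, 0.0509 and 0.0515. TGFBI, a secreted matrix protein induced by TGF-beta, was at 14 ± 8.6 TPM (n = 3) in citrine-positive, 4.99 ± 2.81 (n = 6) in double-negative and 0.873 ± 0.947 (n = 4) in mCherry-positive cells at 7 dpi. It was called in both comparisons with mCherry-positive cells, against double-negative cells in 2 of 10 fits that left out a library.

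**Figure D5:**
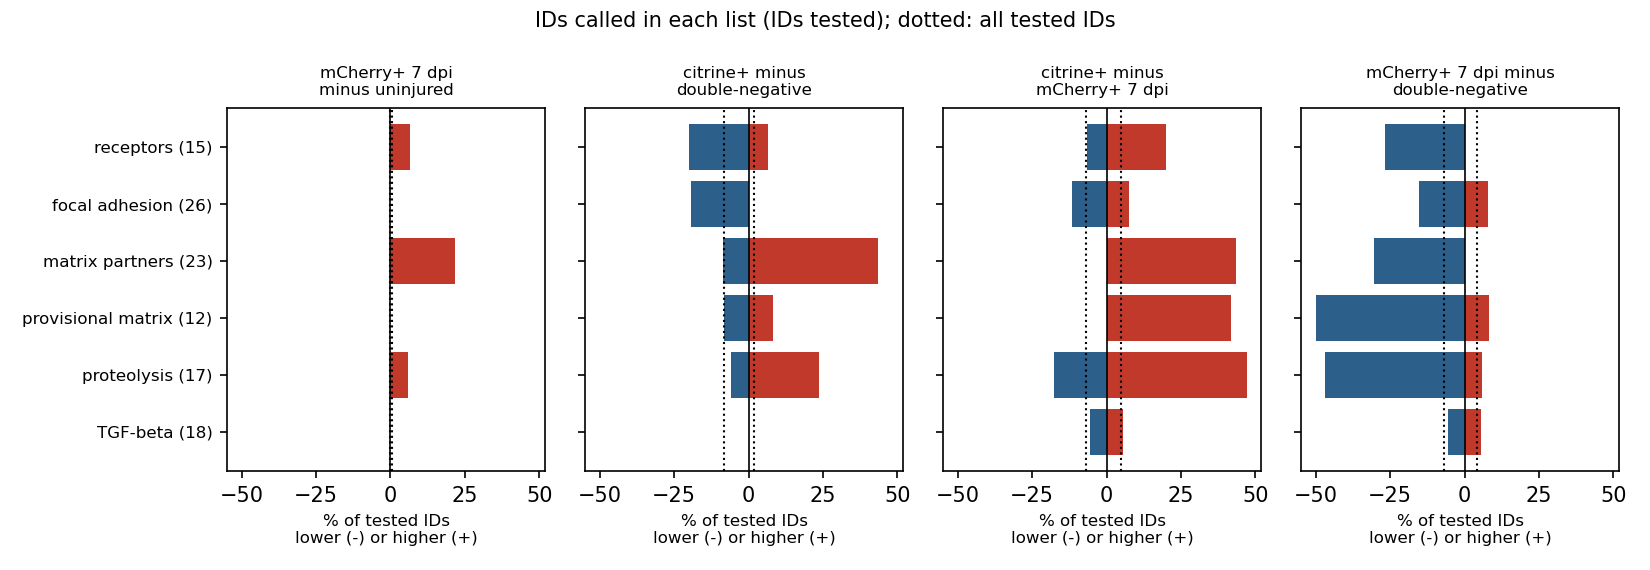
Share of the tested IDs of each list called higher (red, to the right) or lower (blue, to the left) in the 4 comparisons, with the number of IDs tested after each name. Dotted lines give the shares over all 19039 IDs. After injury 5 of 23 matrix partners were called higher.

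Across all 16 libraries the genes whose level ran most like that of fn1a were LRP1, an endocytic receptor, LAMB2, a laminin chain, CLU, a secreted chaperone, aebp1b, and MMP14 (ENSDARG00000008388), a membrane-bound metalloprotease. Their Pearson correlations with fn1a on log2(TPM + 1) were 0.97 each. The 7962 IDs compared were tested, averaged 5 TPM or more and carried a gene name rather than a clone name or bare ID. For fn1b the nearest were adh8a, angptl2a, vmo1a, col18a1b, a basement membrane collagen chain, and ADAMTS8 (ENSDARG00000058252), at 0.96 to 0.97. The paralogs correlated with each other at 0.82, which placed fn1b at rank 168 for fn1a and fn1a at rank 140 for fn1b. LRP1 was at 5.73 TPM in uninjured and 19.2 TPM in injured mCherry-positive cells by group mean, and CLU at 0.99 and 21.1 TPM. The 5 genes nearest to fn1b had at most 1.5 TPM by group mean in either mCherry-positive group. The points share their groups and, in part, their pools, and most of the spread lies between groups, so these correlations are a description.

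Genes beside the paralogs gave another view. In the RefSeq gene order for the assembly GRCz12tu, pard3bb lies next to fn1a and atic next to fn1b. pard3bb was at 14.9 and 23.2 TPM by group mean in uninjured and injured mCherry-positive cells, 22.1 TPM in citrine-positive and 9.05 TPM in double-negative cells. It was not called after injury (adjusted p = 0.656 by limma), and was higher than in double-negative cells both in citrine-positive cells (adjusted p = 0.0380) and in mCherry-positive cells at 7 dpi (adjusted p = 0.0216), where fn1a was lower. atic was at 3.24 to 8.37 TPM by group mean and was called in no comparison, at adjusted p from 0.256 to 0.675.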

How the data were processed

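The authors deposited TPM per gene ID for the 16 libraries; every library sums to 1000000 within rounding. Per the labels' protocols, apexes were dissociated with trypsin, cells were sorted by fluorescence, 0.2 to 0.6 ng of total RNA was amplified with a single-cell kit, and single reads of 60 bases were made. Per the submitters' processing notes, the tools were RSEM 1.2.25, cutadapt and CASAVA 1.8.2, with the build Zv9. RSEM divides reads shared by similar transcripts by estimate, so reads common to fn1a and fn1b could be split between them, and amplification adds spread. No other ID had the values of either gene. The depth is unknown, and no interval is given.

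As the table held TPM, limma 3.58.1 in R 4.3.3 was run with the trend option on log2(TPM + 1), with 1 mean per group over all 16 libraries. An ID entered the test if 3 libraries or more reached 1 TPM, and was called if its p, adjusted by Benjamini-Hochberg over all of them, was under 0.05. Fold changes on this scale understate those of low genes. Paralog ratios were compared with exact permutation tests over libraries in Python 3.11.15 (numpy 2.4.6, pandas 2.3.3, matplotlib 3.10.9). The fit was tested on simulated data. Libraries are separate sorts of pooled hearts.

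The names fn1a and fn1b are those given with the 2 IDs, since the name table calls both FN1. Symbols of the lists matched exactly for 72, without their paralog letter for 48 and never for 5, and those of the markers for 50, 17 and 7. Matching without the letter was added after the names were seen, and it can take in more than 1 paralog. Members, lists and tests were chosen with earlier results of these data known. Both members were named throughout, and from each list the first 3 by adjusted p plus those called after injury, which is shorter than the rule first written, and ITGA5 besides, chosen after its values were seen. Same-numbered pools deviated together for citrine-positive and double-negative libraries (correlation 0.163 to 0.227 in 3 pairs), where the numbers were taken as pairs by the rule that each exceeds 0.1. Other numbers of those groups correlated at -0.280 to 0.167, and citrine-positive pool 7 more with double-negative pool 6 (0.167) than with its own number (0.163). Pairs of the same number entered only the block fit and the values given within pools. The main fit, the list counts and the other exact tests left the pairs out. The labels give the number under the tag pool and do not spell it out. Alternatives were another scaling, pseudocounts of 0.1 and 5, no filter or one at 5 TPM, a fit of the 2 groups alone, the pool as a block, leaving out pools 9 and 10, and leaving out each library.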

Additional observations from a re-analysis of the deposited data

Results flagged for a closer look

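The fn1a level of double-negative pool 6, 415.72 TPM, stood apart from the other 5 double-negative libraries, which lay between 177 and 252 TPM, by a test of the gap to the nearest value. In the same library fn1b was also the highest of its group, at 3433 TPM. The size factor of this library in median-of-ratios scaling was 1.44, against 0.764 to 1.07 in the other 5. The summed fibronectin level of mCherry-positive pool 6 at 7 dpi, 182.58 TPM, stood apart from the other 3 of its group, which lay between 108 and 111 TPM. The size factor of that mCherry-positive library was 1.37, against 1.56, 0.830 and 1.11 in pools 5, 7 and 9. Both flags rest on unscaled TPM, and the part of library scale in them was not tested. Chance flags about 1 in 20 groups in such a test.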

How the results depend on the processing

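The 8 changes of fn1a and fn1b kept their direction under all settings tried except fn1b after injury, which ran from -0.16 (without injured pool 6) to 1.06 (without pool 9) when a library was left out. fn1a after injury was 3.92 with an adjusted p of 0.0538 in the 2 groups alone, and in citrine-positive against double-negative cells it was 1.73 with a pseudocount of 0.1, 1.66 without pools 9 and 10, and 1.60 to 1.88 with a library left out. Calls after injury numbered 132, and 86 with a pseudocount of 5, 4 in the 2 groups alone, and 83 to 207 with a library left out. Citrine-positive against double-negative cells gave 1876 calls, 772 without pools 9 and 10, and 1250 to 1908 with a library left out. Citrine-positive against mCherry-positive cells gave 2268, 1319 without pools 9 and 10, 1384 in the 2 groups alone and 613 with the replicate block, and mCherry-positive against double-negative cells 2083 and 1332 with the block. Same-numbered pools correlated at 0.0181 to 0.368 in 4 pairs for the last comparison and at 0.0651 and 0.181 in 2 pairs for the one before, so the block was not taken as pairing there, and it changed no call of either paralog. With it the ratio differences were 0.43, -3.23 and 2.04 in the 3 comparisons of injured hearts. Median-of-ratios scaling moved the median change of all IDs by 0.20, 0.33 and -0.15 in these 3 comparisons and by 0.06 after injury. ITGA5 changed sign: after injury 0.089 with that scaling, 0.19 without pools 9 and 10, 0.056 without the 2 most abundant IDs of those pools and -0.27 to 0.19 with a library left out; against double-negative cells -0.34 to 0.53 in citrine-positive cells with a library left out; and 0.14, 0.31 and 0.11 between citrine-positive and mCherry-positive cells with that scaling, without pools 9 and 10 and with the block. The cause of these shifts was not tested. The unknown depth limits what can be said of fn1a in uninjured hearts, which lay near the added 1 TPM.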
